A study of Mus musculus with 20 samples.

Results

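Cxcl1, Cxcl5 and Cxcl15, secreted chemokines that draw neutrophils into tissue, were followed across smoke exposure and losartan treatment in mouse lung. Members were taken by name: every probe whose platform annotation carries one of these 3 symbols. That gave 3 probes, 1 for each gene, among 25697 probes and 16110 named genes on the array, and each of the 3 was detected on all 20 arrays. The Cxcl5 probe is 6180202, the Cxcl1 probe is 3610082 and the Cxcl15 probe is 520403.

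RNA came from whole lungs of AKR/J males, an inbred mouse strain. Their age is given as 6 to 8 weeks in all groups. Whether that is the age at the start of exposure or at tissue collection is not given here. The groups were cigarette smoke with losartan (CS_Los, 3 arrays), cigarette smoke (CS, 7 arrays), room air with losartan (RA_Los, 3 arrays) and room air (RA, 7 arrays). Losartan, which blocks the angiotensin II type 1 receptor, was given in drinking water at 0.6 g/L. Smoke from reference cigarettes was given for 2 h a day on 5 days a week with carbon monoxide averaging 350 ppm. The exposure lasted 6 to 7 weeks according to the treatment protocol and 2 months according to the series' design text. The labels divide the arrays into batch 1, with 3 arrays of each group, and batch 2, with 4 CS and 4 RA arrays. Arrays are called by the replicate number of their description: the CS_Los arrays, titled 7 to 9, are CS_Los 1 to 3, and those of batch 2, titled 1 to 4, are CS 4 to CS 7 and RA 4 to RA 7. Whether each sample is its own animal is not stated, and p-values therefore cover only the spread between these samples.

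The chemokines of this family are small proteins with a pair of cysteines separated by a single residue, and those that attract neutrophils carry a glutamate-leucine-arginine (ELR) motif before the first cysteine. The best known of them act through the G protein-coupled receptor CXCR2, and some through CXCR1, and they are held on heparan sulfate so that a gradient leads neutrophils out of the vessel. Cxcl1, also known as KC, is an early-response gene of many cell types, induced through NF-kB by interleukin-1, TNF and bacterial products. Cxcl5, also known as LIX, is made in the lung mainly by epithelial cells and responds to interleukin-17 and endotoxin. Cxcl15, also known as lungkine, is made constitutively by the airway and alveolar epithelium of the mouse and has no known human counterpart.

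In the RefSeq gene table of assembly GRCm38.p6, the 3 genes lie in one chemokine cluster on chromosome 5, in the order Cxcl5, Ppbp, Pf4, Cxcl3, Cxcl15, Cxcl1 and Cxcl2 among protein-coding genes. The RefSeq promoter table for the same build held Cxcl1 and Cxcl15, 2 of the 3 genes. Their 250 bases before the start are printed because the motifs of induced chemokine genes, NF-kB above all, can be read in them beside the changes with smoke. Capitals mark matches to the motifs searched.

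Cxcl1, chr5:90890995-90891244, + strand: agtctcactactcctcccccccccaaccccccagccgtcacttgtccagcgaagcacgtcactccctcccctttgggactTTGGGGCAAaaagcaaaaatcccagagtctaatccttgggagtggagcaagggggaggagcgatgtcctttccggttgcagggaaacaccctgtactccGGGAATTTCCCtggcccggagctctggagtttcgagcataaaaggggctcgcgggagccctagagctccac

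Cxcl15, chr5:90794284-90794533, + strand: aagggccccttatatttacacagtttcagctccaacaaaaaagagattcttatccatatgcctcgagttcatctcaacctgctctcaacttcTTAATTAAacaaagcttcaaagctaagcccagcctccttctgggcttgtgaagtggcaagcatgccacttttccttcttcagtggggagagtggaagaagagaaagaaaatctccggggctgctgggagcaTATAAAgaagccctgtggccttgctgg

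Both strands were searched for 8 motifs. The NF-kB consensus matched the Cxcl1 window on each strand, and the overlapping matches join to GGGAATTTCCC, 71 to 61 bases before the start. The same 11 letters stood 97 to 87 bases before the start of Cxcl2 and 73 to 63 bases before that of Cxcl3, and the Cxcl15 window held no match. An NF-kB consensus was found in 7.25% of 32851 promoter windows of this length. The Cxcl1 window also held a C/EBP match (TTGCNNNAA, minus strand, 170 to 162 bases before the start, found in 8.29% of windows). The Cxcl15 window held a TATA box (TATAAA, 27 to 22 bases before the start, in 12.4% of windows). It also held a match to the D-box pattern TTANNTAA (158 to 151 bases before the start, in 5.43%). The N letters of that pattern take any base, and the match read TTAATTAA, so it need not be a D-box. Neither window held an AP-1 site, the Rev-erb and ROR element AGGTCA, the E-box CACGTG or a glucocorticoid response element, which were found in 6.75%, 14%, 6.02% and 0.0304% of windows. These are matches of letters and not measured binding.

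The deposited signals are probe brightness before normalization. Batch 2 was brighter than batch 1, with a median signal per array of 87.4 to 100.4 against 57.2 to 72.3, and the leading principal component after normalization (51.8% of the variance) separated the batches. Markers of lung (Sftpc, Sftpb, Scgb1a1, Ager and Cdh5) were detected on all 20 arrays. The deposited signals are therefore given by batch, and changes were taken from background-corrected, quantile-normalized log2 values with batch as a term, tested with limma on 17012 probes. In such bulk tissue, fewer cells of a type and less RNA per cell cannot be told apart.

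Cxcl5 and Cxcl1 were higher in smoke-exposed lungs. Cxcl5 was 3.17-fold and Cxcl1 2.14-fold higher in CS than in RA, while Cxcl15 did not pass the test. So 2 of the 3 members were called, both higher, where 11.2% of all probes tested were called in either direction and 5.3% were called higher. The 3 genes were chosen with earlier results of these data known, so this count is no test of the family. At an unadjusted p under 0.05 these were the same 2 members and 25.1% of all probes. The median change over all 17012 probes was -0.00135 on the log2 scale.

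Cxcl5 had the larger of these changes. In batch 1 its deposited signals were 149.9, 197.0 and 317.0 in CS lungs, against 81.2, 81.3 and 77.6 in RA lungs. In batch 2 they were 179.6, 215.1, 448.2 and 284.2 in CS lungs, against 192.9, 121.1, 94.3 and 86.1 in RA lungs. The groups were apart in batch 1 and overlapped in batch 2, where RA 4 was brighter than CS 4. The normalized log2 signal averaged 7.52 ± 0.751 in CS and 5.86 ± 0.464 in RA (SD, n = 7 each), and the batch-adjusted change was 1.66 ± 0.243 (SE, 95% interval 1.15 to 2.18, limma adjusted p = 0.000306). Leaving out any 1 of the 14 arrays kept Cxcl5 past the threshold, with changes of 1.52 to 1.83.

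Cxcl1 moved the same way by less. Its signals in batch 1 were 188.6, 151.7 and 219.1 in CS lungs, against 89.4, 82.2 and 102.0 in RA lungs. In batch 2 they were 335.6, 286.9, 769.9 and 291.2 in CS lungs, against 303.0, 261.2, 173.7 and 198.9 in RA lungs. Again the groups were apart in batch 1 and overlapped in batch 2, and CS 6 stood far above the other smoke lungs for this gene. The log2 signal averaged 7.77 ± 0.582 in CS and 6.67 ± 0.395 in RA (SD, n = 7 each), a batch-adjusted change of 1.09 ± 0.225 (SE, 95% interval 0.62 to 1.57, limma adjusted p = 0.0043). Without CS 6 the change was 0.91 (adjusted p = 0.00365).

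Cxcl15 gave a bright signal on every array. In batch 1 its signals were 3797.6, 11366.8 and 12068.5 in CS lungs, against 8027.7, 10155.7 and 5586.5 in RA lungs, and the groups overlapped. In batch 2 they were 29837.8, 29814.6, 25865.5 and 34948.7 in CS lungs, against 23665.8, 27213.7, 18236.6 and 25123.2 in RA lungs, and after normalization every CS value there (14.10 to 14.31) lay above every RA value (13.61 to 13.93). The batch-adjusted change was 0.36 ± 0.195 on the log2 scale (SE, 95% interval -0.05 to 0.77, limma adjusted p = 0.264). CS 1 decided this call: without it the change was 0.56 ± 0.124 (SE) and passed (adjusted p = 0.00716). On CS 1 the mean log2 signal of the 16 alveolar type II markers was also the lowest of the 7 CS arrays, 10.71 against 11.23 to 11.48 on the other 6. Its part in the result was not tested.

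**Figure D1:**
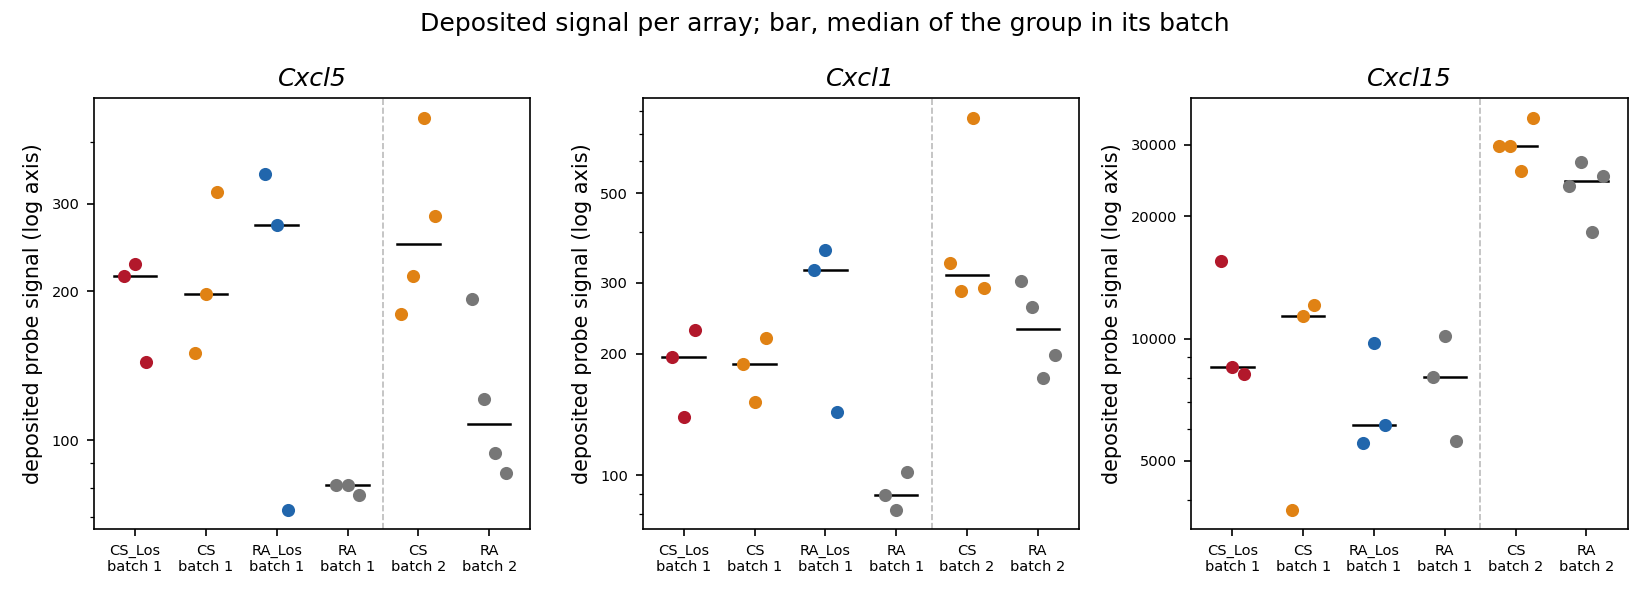
Deposited probe signal of Cxcl5, Cxcl1 and Cxcl15 on each of 20 arrays (log axis), by group and batch; points are arrays and the bar is the group's median in that batch. In batch 1 the CS and CS_Los arrays lie above the RA arrays for Cxcl5 and Cxcl1, and 2 of 3 RA_Los arrays lie above every CS_Los and RA array of that batch for both genes.

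Within batch 1, in the fit of its 12 arrays, the CS against RA changes were 1.98 ± 0.549 for Cxcl5 (SE, limma adjusted p = 0.393), 1.45 ± 0.299 for Cxcl1 (adjusted p = 0.26) and 0.28 ± 0.383 for Cxcl15 (adjusted p = 0.908). None of the 3 members passed in that limma fit, where 2 had an unadjusted p under 0.05, as did 7.46% of all probes, and 0.00588% of all probes were called. Cxcl5 and Cxcl1 did not overlap between CS and RA and were higher, as were 9.22% of all probes. With the 6 CS and RA arrays of batch 1 fitted alone, a setting added after seeing the data, the same changes passed (adjusted p = 0.0174 for Cxcl5 and 0.0208 for Cxcl1), and 95 probes were called in place of 1.

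Within batch 2 (8 arrays), Cxcl5 and Cxcl15 passed, 2 of 3 members beside 5.34% of all probes. The changes were 1.42 ± 0.335 for Cxcl5 (SE, limma adjusted p = 0.0322), 0.42 ± 0.0963 for Cxcl15 (adjusted p = 0.0284) and 0.83 ± 0.32 for Cxcl1 (adjusted p = 0.174). The Cxcl5 and Cxcl15 calls were near the threshold and each held in 3 of 8 fits that left out 1 array. Only Cxcl15 did not overlap between the groups of batch 2, where 6.02% of all probes were higher without overlap. Without CS 6 the Cxcl1 change in batch 2 was 0.44. The difference of the smoke change between the batches, batch 2 minus batch 1, was -0.56 ± 0.486 for Cxcl5, -0.61 ± 0.443 for Cxcl1 and 0.14 ± 0.404 for Cxcl15 (SE). In limma none of the 3 passed (adjusted p = 1 for each, 0 with an unadjusted p under 0.05, beside 4.66% of all probes), where 0.00588% of all probes were called.

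Losartan was given in batch 1 alone, so the 4 groups are compared there, with 3 arrays each and one shared estimate of the spread. For Cxcl5 the order of mean log2 signals was CS (8.04 ± 0.509), CS_Los (7.72 ± 0.447), RA_Los (7.48 ± 1.56) and RA (6.06 ± 0.164). For Cxcl1 it was RA_Los (8.13 ± 0.668), CS (7.82 ± 0.21), CS_Los (7.66 ± 0.426) and RA (6.37 ± 0.285). For Cxcl15 it was CS_Los (13.72 ± 0.554), CS (13.57 ± 0.871), RA (13.29 ± 0.468) and RA_Los (13.10 ± 0.217), all SD with n = 3. Neighbours in the Cxcl15 order overlapped. For Cxcl5 and Cxcl1 the upper 3 groups overlapped with each other, and RA was last for both. RA_Los overlapped with RA for Cxcl5, through RA_Los 3, and not for Cxcl1.

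In smoke-exposed lungs the losartan group and the untreated group overlapped for all 3 chemokines, and no difference passed. Cxcl5 signals were 214.5, 227.4 and 143.9 in CS_Los lungs, against 149.9, 197.0 and 317.0 in CS lungs. The log2 change was -0.32 ± 0.549 (SE, 95% interval -1.5 to 0.86, limma adjusted p = 0.969). Cxcl1 signals were 196.0, 139.4 and 228.9 in CS_Los lungs, against 188.6, 151.7 and 219.1 in CS lungs, a change of -0.16 ± 0.299 (95% interval -0.80 to 0.49, adjusted p = 0.972). Cxcl15 signals were 15528.4, 8506.2 and 8183.9 in CS_Los lungs, against 3797.6, 11366.8 and 12068.5 in CS lungs, a change of 0.15 ± 0.383 (95% interval -0.67 to 0.97, adjusted p = 0.981).

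All 3 overlapped between CS_Los and CS, where 4.5% of all probes were higher and 6.08% lower without overlap. In this limma comparison 0 of 3 members and 0% of all probes passed, and at an unadjusted p under 0.05 these were 0 members and 5.93% of probes. The intervals are wide for all 3 on the log2 scale: -1.5 to 0.86 for Cxcl5, -0.80 to 0.49 for Cxcl1 and -0.67 to 0.97 for Cxcl15. Without CS 1 the Cxcl15 change was -0.35.

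Set against RA, the CS_Los lungs had Cxcl5 higher by 1.66 ± 0.549 (SE, limma adjusted p = 0.703) and Cxcl1 higher by 1.29 ± 0.299 (adjusted p = 0.38) on the log2 scale, and neither overlapped with RA. Higher without overlap was also 4.7% of all probes. For Cxcl15 the difference was 0.43 ± 0.383 (adjusted p = 0.855). The limma fit called 0 of 3 members (2 at an unadjusted p under 0.05, beside 6.43% of all probes), where 0.00588% of all probes were called.

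Lungs of mice given losartan in room air also had bright Cxcl1, and 2 of the 3 had bright Cxcl5. Cxcl1 signals were 323.4, 361.8 and 143.8 in RA_Los lungs, against 89.4, 82.2 and 102.0 in RA lungs. The groups did not overlap, which held with a higher RA_Los level for 4.75% of all probes. The log2 change was 1.76 ± 0.299 (SE, 95% interval 1.12 to 2.40), a 3.39-fold difference with an unadjusted limma p of 4.58e-05, the 2nd smallest of 17012 probes. It did not pass after adjustment over all probes (adjusted p = 0.288).

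Cxcl5 differed widely among the RA_Los lungs. Its signals were 345.4, 272.6 and 72.5 in RA_Los lungs, against 81.2, 81.3 and 77.6 in RA lungs: RA_Los 1 and RA_Los 2 stood above every RA lung of the batch and RA_Los 3 below every one. The change was 1.42 ± 0.549 on the log2 scale (SE, 95% interval 0.24 to 2.60, limma adjusted p = 0.959). RA_Los 3 and RA_Los 1 moved these values. Without RA_Los 3 the changes were 2.29 for Cxcl5 (adjusted p = 0.065) and 2.14 for Cxcl1, which then passed (adjusted p = 0.0218). Without RA_Los 1 the Cxcl5 change was 0.79.

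Cxcl15 signals were 5536.9, 9727.4 and 6122.5 in RA_Los lungs, against 8027.7, 10155.7 and 5586.5 in RA lungs. They overlapped, with a log2 change of -0.19 ± 0.383 (SE, limma adjusted p = 0.981). Of the 3 members, 0 passed in RA_Los against RA and 2 had an unadjusted p under 0.05 in limma, where 0.00588% of all probes were called after adjustment and 4.9% had such an unadjusted p.

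**Figure D2:**
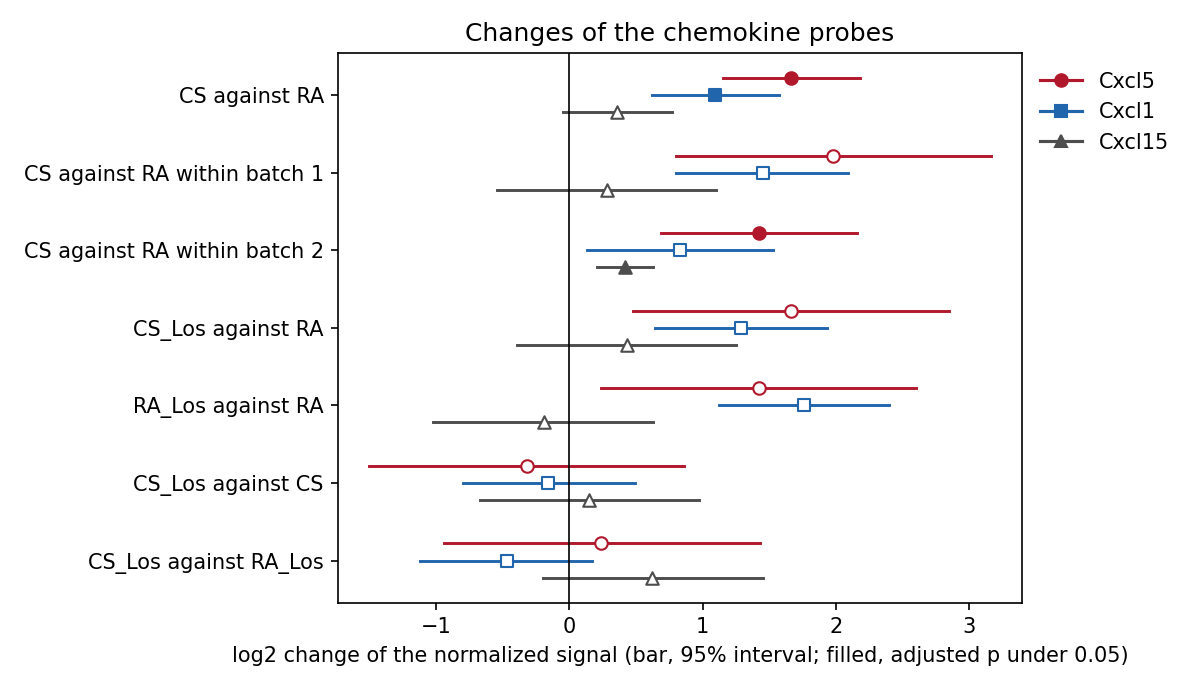
Log2 change of the normalized signal of Cxcl5, Cxcl1 and Cxcl15 (x axis) in 7 comparisons, with bars for the 95% interval and filled symbols for a limma adjusted p under 0.05. For Cxcl5 and Cxcl1 the intervals of the 5 comparisons against RA lie above 0, and those of CS_Los against CS and CS_Los against RA_Los span 0; the Cxcl15 interval lies above 0 within batch 2 only.

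Between the losartan-treated groups, smoke made no difference that passed. The CS_Los against RA_Los changes were 0.24 ± 0.549 for Cxcl5 (SE, limma adjusted p = 0.995), -0.47 ± 0.299 for Cxcl1 (adjusted p = 0.935) and 0.62 ± 0.383 for Cxcl15 (adjusted p = 0.928). In this limma comparison 0 of 3 members and 0% of all probes were called, against 0 members and 5.55% of probes at an unadjusted p under 0.05. Only Cxcl15 did not overlap, higher in CS_Los, as were 4.31% of all probes. Without RA_Los 3 the Cxcl5 change was -0.62.

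The losartan change in smoke minus that in room air was -1.92 ± 0.423 for Cxcl1 (SE, 95% interval -2.83 to -1.01, unadjusted p = 0.00051, limma adjusted p = 0.517). For Cxcl5 it was -1.74 ± 0.776 (95% interval -3.41 to -0.07, unadjusted p = 0.0426, adjusted p = 0.67), and for Cxcl15 0.34 ± 0.541 (adjusted p = 0.941). None of these differences passed in limma (2 of 3 members, beside 7.19% of all probes, had an unadjusted p under 0.05, and 0% of probes were called). RA_Los 1 and RA_Los 3 moved the Cxcl5 value, which was -1.10 without RA_Los 1 and -2.61 without RA_Los 3, and CS 1 the Cxcl15 value, which was -0.16 without it. These comparisons share their arrays, so their changes are not independent of each other.

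Array by array, Cxcl1 and Cxcl5 tended to be high on the same arrays within a group. After each group's mean in its batch was subtracted, Pearson's r over the 20 arrays was 0.657 between them (permutation p = 0.0307, 0.0921 adjusted over the 3 pairs) and Spearman's rho was 0.505 (permutation p = 0.0772, adjusted 0.232). Within batch 1 r was 0.597 and within batch 2 it was 0.806. Without CS 6 and RA_Los 3, the arrays farthest from the median of Cxcl1, r was 0.45, and without the RA_Los arrays it was 0.505. Over all 20 arrays the relation did not pass after adjustment, and its size rests in part on those lungs.

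Cxcl15 was only weakly related to the other members. Its r was -0.194 with Cxcl1 (permutation p = 0.253, adjusted 0.379) and 0.113 with Cxcl5 (permutation p = 0.585, adjusted 0.585), with rho of -0.254 (permutation p = 0.263, adjusted 0.388) and 0.211 (permutation p = 0.388, adjusted 0.388). Within batches 1 and 2 r was -0.245 and -0.311 with Cxcl1, and 0.157 and -0.182 with Cxcl5. Without the 2 farthest arrays it was -0.176 with Cxcl1 (CS 6 and RA_Los 3 left out) and 0.334 with Cxcl5 (RA_Los 3 and RA_Los 1 left out).

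Among 11195 named genes, the same centred values ranked the genes most like each chemokine over the 20 arrays. For Cxcl1 these were Mrm2, Gpha2, Fgf9, Rps6kb2 and Ucp3 (r from 0.684 to 0.779), and Cxcl5 ranked 8th. For Cxcl5 they were L3hypdh, 2310030G06Rik, Ktn1, Hibadh and Grk4 (r from 0.784 to 0.852), and Cxcl1 ranked 66th. For Cxcl15 they were Fdps, Fbxo8, Ppp2r3c, Hnrnpk and Mtdh (r from 0.901 to 0.936). None of these 15 genes passed in CS against RA. The ranking describes arrays that share a batch and a normalization, and carries no test.

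The other ligands of the family gave few values. Cxcl2, another early-response neutrophil chemokine of the cluster, passed detection on 1 CS array of 7 and on 0 RA arrays of 7, and Cxcl3 on 0 of 20, so neither was tested. Ppbp, the platelet chemokine, changed by 0.11 ± 0.17 in CS against RA (SE, limma adjusted p = 0.735). In RA_Los against RA its change was -0.88 ± 0.258 (SE, limma adjusted p = 0.959), the other direction from Cxcl1 and Cxcl5. It was detected on 1 of 3 RA_Los arrays. Of 7 further CXC ligands tested in CS against RA, 1 rose and 0 fell, beside 11.2% of all probes called in either direction. Their median change was 0.04. The riser was Pf4, a platelet product, by 0.40 ± 0.116 (SE, adjusted p = 0.0353). The interferon-induced T cell chemokines Cxcl9 and Cxcl10 had changes of 0.16 and 0.04, and the B cell chemokine Cxcl13 -0.26. The stromal Cxcl12, the epithelial Cxcl14 and the membrane-bound Cxcl16 had changes of 0.17, -0.26 and -0.15, and none of these passed (adjusted p from 0.101 to 0.932).

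Both receptors rose in CS against RA, where 11.2% of all probes were called in either direction. Cxcr1 was higher by 0.74 ± 0.125 (SE, limma adjusted p = 0.00102) and Cxcr2 by 0.61 ± 0.153 (adjusted p = 0.0158) on the log2 scale. Ackr1, a decoy receptor of red cells and venules, was not tested.

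None of the tested cytokines known to induce these ligands passed, and several were near the detection limit. Il17a was detected on 4 of 20 arrays, Tnfsf11 on 5 and Il6 on 8, and the untested ones fell short of the detection filter. Of 11 listed, 7 were tested and 0 passed in limma (2 at an unadjusted p under 0.05, beside 25.1% of all probes), with a median change of 0.02 and a range of -0.22 to 0.37, the highest being Il1b (adjusted p = 0.116). Among 12 receptors and adaptors upstream, 1 rose and 1 fell, beside 11.2% of all probes called in either direction. Il17re, a subunit of the epithelial interleukin-17C receptor, rose by 0.35 ± 0.07 (SE, adjusted p = 0.00382), and the endotoxin receptor Tlr4 fell by 0.32 on the log2 scale (adjusted p = 0.0213). Of 12 NF-kB subunits and feedback inhibitors, 1 rose and 2 fell beside that same share, with a median of 0.09. All 3 of these genes act as brakes: the inhibitor Nfkbie rose by 0.37 (adjusted p = 0.0217), while the inhibitor Nfkbia fell by 0.42 (adjusted p = 0.028) and Zfp36, which destabilises cytokine and chemokine mRNAs, fell by 0.38 (adjusted p = 0.0388).

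Genes that epithelium induces along with these chemokines gave larger values. Of 9 tested, 5 rose and 1 fell in CS against RA, beside 11.2% of all probes called in either direction. Their median change was 1.15. Saa3, an acute-phase protein, rose by 2.54 ± 0.285 (SE, limma adjusted p = 2.75e-05), the iron-siderophore trap Lcn2 by 1.45 ± 0.208 (adjusted p = 0.000269), the antibody transporter Pigr by 1.34 ± 0.162 (adjusted p = 5.36e-05) and the calprotectin subunit S100a9 by 1.29 ± 0.194 (adjusted p = 0.00042). Cebpb, a transcription factor of the acute-phase response, fell by 0.44 on the log2 scale (adjusted p = 0.00201). Csf3, the neutrophil growth factor, had a change of -0.16 (adjusted p = 0.309) but was detected on only 3 of 20 arrays. Lcn2, S100a8 and S100a9 are also made by neutrophils and stand in that cell's list too, as does Cxcr2.

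Neutrophil markers were higher with smoke. Of 24 listed, 16 were tested, and 9 rose and 0 fell, beside 11.2% of all probes called in either direction. The median change was 0.74, and 4 of the 9 (Lcn2, S100a8, S100a9 and Cxcr2) are counted above as well. Cd177, a surface protein of neutrophils, rose by 2.37 ± 0.205 (SE, limma adjusted p = 2.19e-06) and the granule protein lactoferrin, Ltf, by 2.31 ± 0.653 (adjusted p = 0.0306). Among other granule genes of the list, Lcn2 and Mmp9 rose (1.45 and 0.90). Camp, Elane, Prtn3 and Mmp8 had changes of 0.03, 0.04, -0.12 and 0.19 and did not pass (limma adjusted p from 0.325 to 0.897). Of these, Camp and Mmp8 were detected on 4 arrays and Prtn3 on 7. The mean log2 signal of the 16 genes was 7.13 to 7.74 on the 7 CS arrays, against 6.26 to 6.89 on the 7 RA arrays, so the groups did not overlap. Whether the chemokine signals and the neutrophil signals are linked was not tested.

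**Figure D3:**
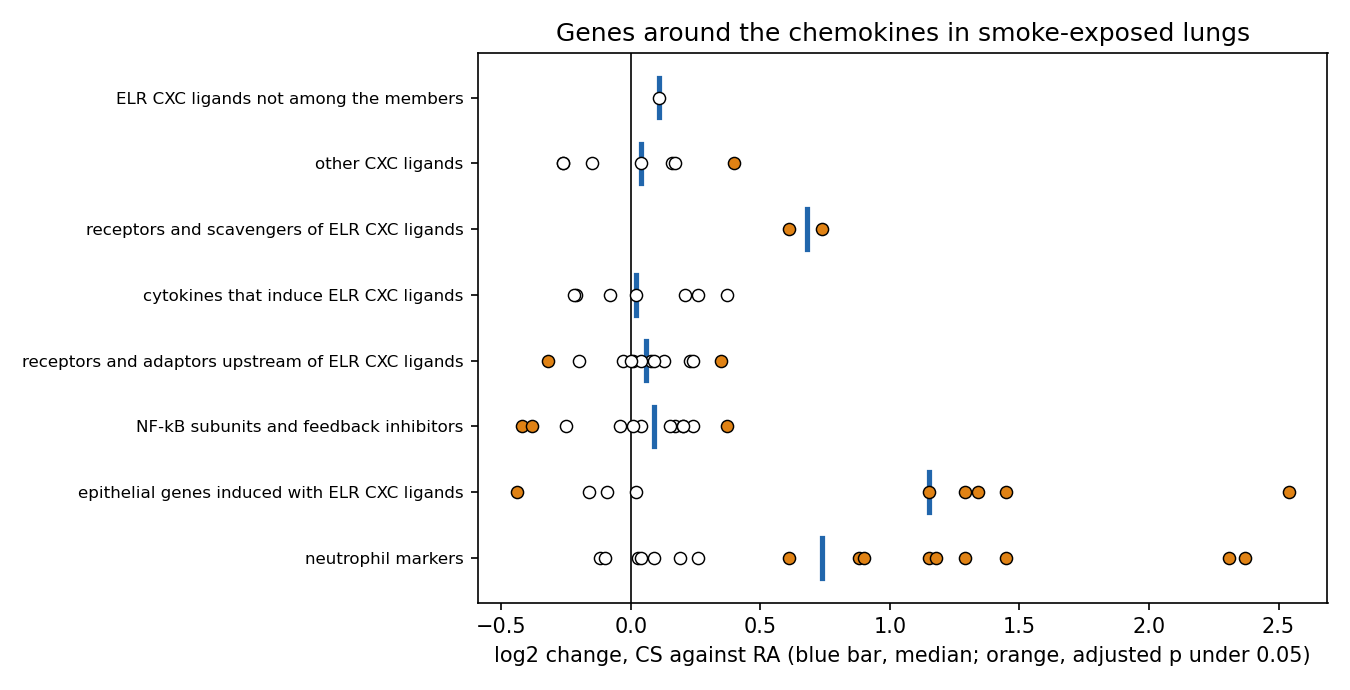
Log2 change in CS against RA of each tested gene in 8 lists (x axis; rows are lists), with the list's median as a blue bar and genes with a limma adjusted p under 0.05 in orange. Both receptors, 5 of 9 co-induced epithelial genes and 9 of 16 neutrophil markers rose, while 0 of 7 inducing cytokines passed. Of these cytokines, Il17a, Tnfsf11 and Il6 were detected on 4, 5 and 8 arrays. Of all probes, 11.2% were called in either direction. Cxcr2, Lcn2, S100a8 and S100a9 are each drawn in 2 lists.

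In the losartan comparisons the neutrophil list was 6.81 to 7.10 on the RA_Los arrays against 6.26 to 6.79 on the RA arrays of batch 1, and 7.30 to 7.73 on the CS_Los arrays against 7.20 to 7.52 on the CS arrays. In limma 0 of the 16 genes passed in either comparison, with 2 and 3 at an unadjusted p under 0.05, and the median changes were 0.30 and 0.26. RA_Los 1 and RA_Los 2, with Cxcl5 at 8.75 and 7.95, had neutrophil list levels of 6.87 and 7.10. These lay above the RA arrays of batch 1 and below all 7 CS arrays, whose Cxcl5 ranged from 6.46 to 8.55. The nearest CS array, CS 6 of batch 2, had a neutrophil list level of 7.13, close to that of RA_Los 2.

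Markers of the epithelial cells known to make Cxcl5 and Cxcl15 gave mixed counts. Of 16 alveolar type II markers, 0 passed in CS against RA in limma (0 at an unadjusted p under 0.05, beside 25.1% of all probes). After adjustment, 11.2% of all probes were called in this comparison. Of 9 club and secretory airway markers, 3 rose and 0 fell with a median of 0.40: Scgb3a1, a secretoglobin of the proximal airway, by 3.14 ± 0.753 (SE, adjusted p = 0.0121), the mucosal trefoil peptide Tff2 by 2.5 ± 0.412 (adjusted p = 0.00086) and haptoglobin, Hp, by 0.40 ± 0.111 (adjusted p = 0.0266). The club cell's defining Scgb1a1 had a change of 0.01 (adjusted p = 0.947). The mean log2 signal of the secretory list spanned 10.31 to 12.57 on the CS arrays and 9.89 to 11.70 on the RA arrays, which overlapped.

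The secretory list and Cxcl5 were ordered alike in some groups and not in others. On CS_Los 1 to 3 it was 11.23, 11.44 and 13.05, the last being the highest of all 20 arrays, while Cxcl5 was lowest on CS_Los 3 (7.21, against 7.92 and 8.04). It was 12.34 and 13.02 on RA_Los 1 and RA_Los 2, where Cxcl5 was high, and 10.14 on RA_Los 3, where Cxcl5 was 5.74. RA 4, with the highest Cxcl5 of the RA lungs (6.51), had the highest secretory level of that group, 11.70. CS 6 went the other way, with Cxcl5 at 8.07 and the lowest secretory level of the CS lungs, 10.31. Few genes carried the RA_Los difference in this mean. In RA_Los against RA the changes were 3.22 for Bpifa1, 2.65 for Scgb3a1, 2.3 for Tff2 and 2.25 for Reg3g. They were -0.08 to 0.31 for the list's other genes, and none passed in limma. The part of airway content in the Cxcl5 values was not tested.

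**Figure D4:**
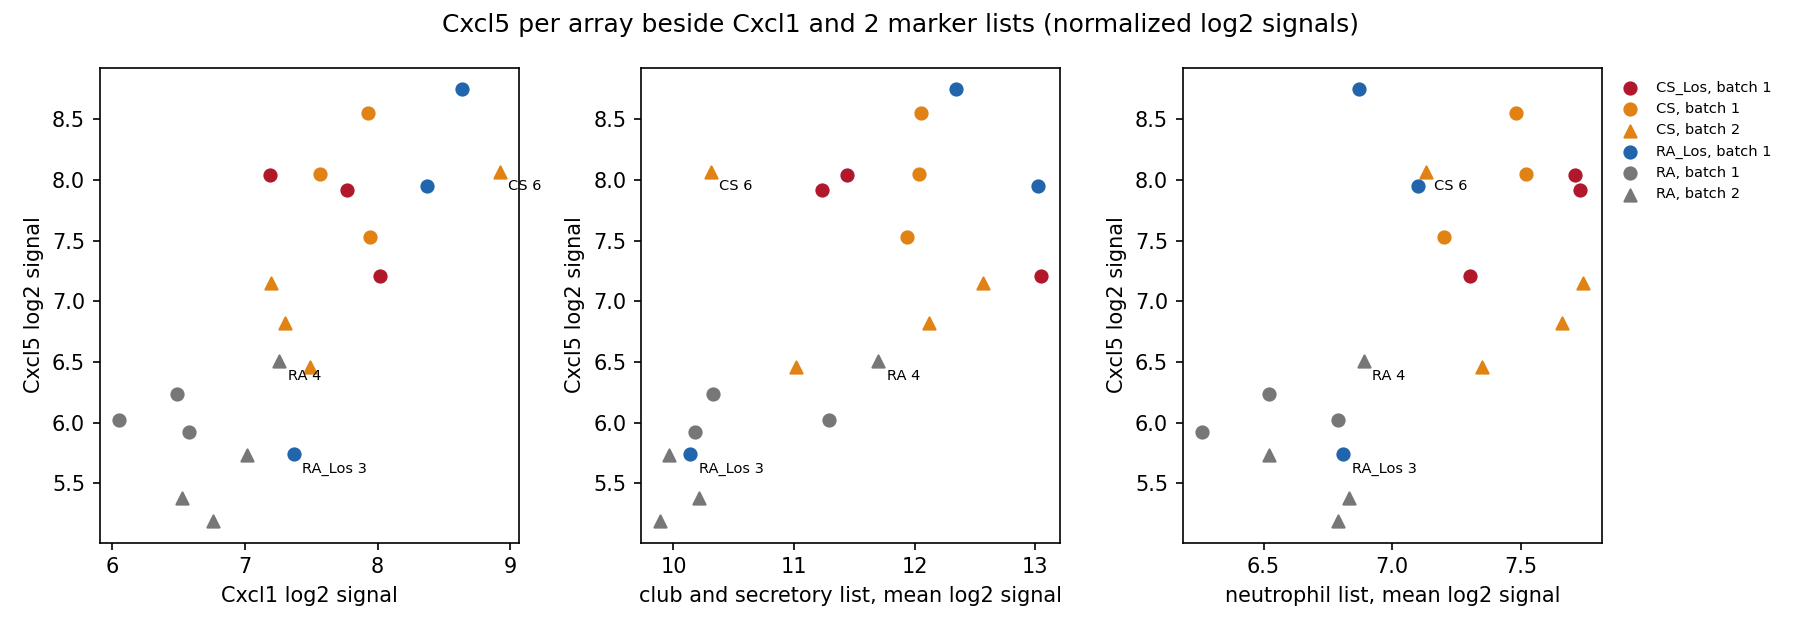
Normalized log2 signal of Cxcl5 on each of 20 arrays (y axis) beside, from left to right, the log2 signal of Cxcl1 and the mean log2 signal of the club and secretory and the neutrophil lists; colours are groups and shapes are batches. RA_Los 3 sits with the RA arrays in Cxcl5 and the secretory list, and CS 6 has high Cxcl5 and Cxcl1 (8.07 and 8.92) at a low secretory level (10.31).

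Several clock and stress-linked genes did not overlap between CS and RA. Nr1d1, a clock repressor, was 7.98 to 8.87 on CS arrays against 6.07 to 6.50 on RA arrays in log2 signal, and Dbp, a clock output gene, 9.73 to 12.22 against 7.79 to 8.91. Of all probes, 2.11% were higher in CS without overlap in both batches, each taken separately. The matching share of lower probes was not counted. In the clock list 3 of 16 genes rose and 5 fell, beside 11.2% of all probes called in either direction. The log2 changes were -1.6 for Per2 and -1.5 for Per1 (limma adjusted p = 0.00144 and 0.00159). The glucocorticoid-induced Tsc22d3 was 10.28 to 11.34 on CS arrays against 11.77 to 12.98 on RA arrays, and the heat-shock gene Hspa1a 5.71 to 7.81 against 9.77 to 11.88. With 2 components of the clock genes as covariates in a fit of all 20 arrays, the smoke change was 2.36 for Cxcl5 (limma adjusted p = 0.216), 1.02 for Cxcl1 (adjusted p = 0.508) and -0.22 for Cxcl15 (adjusted p = 0.858), and 0 probes were called. The second of those components did not overlap between CS and RA (at most 0.105 on CS arrays, at least 1.45 on RA arrays). It spanned -4.18 to 2.57 on the CS_Los arrays and -0.0573 to 2.04 on the RA_Los arrays. The SE of the smoke change was 0.566 for Cxcl5 and 0.442 for Cxcl1 in this fit.

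In the losartan groups these genes and the chemokines had both like and unlike orders, with 3 arrays each. On CS_Los 1 to 3, Nr1d1 was 8.05, 6.77 and 9.02, Dbp 9.50, 8.55 and 11.91, Tsc22d3 10.19, 12.13 and 11.75, and Hspa1a 5.52, 9.94 and 8.54. Cxcl5 there was 7.92, 8.04 and 7.21 and Cxcl1 7.77, 7.19 and 8.02. Cxcl1 thus had the order of Nr1d1 and Dbp, and Cxcl5 had the reverse of that order. On RA_Los 1 to 3, Nr1d1 was 7.06, 8.29 and 8.90, Dbp 8.85, 11.79 and 12.39, Tsc22d3 12.21, 11.97 and 11.33, and Hspa1a 11.45, 8.37 and 7.06. Cxcl5 there was 8.75, 7.95 and 5.74 and Cxcl1 8.64, 8.37 and 7.37, both in the order of Hspa1a and Tsc22d3 and the reverse of that of Nr1d1 and Dbp. No source used here gives the time of day of tissue collection, and its part in the smoke changes was not tested.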

How the data were processed

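Per the file headers, the deposited signals are non-normalized intensities, 1 value per probe and array. BeadStudio, with no version stated, was named by the submitters' processing notes. The deposited detection p-values accompany each signal column. A second table holds log2 values by the authors, which equal the log2 signal shifted to a median of 8 per array (largest difference 0.0065) and served as an alternative. No source used here says if background was removed; 0 signals were negative.

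Background was corrected with limma's nec (offset 16), followed by quantile normalization over 20 arrays and log2. The offset understates changes of dim probes. A probe was tested if its detection p was below 0.05 on 3 or more arrays (17012 of 25697). The annotation gave 23141 probes 1 symbol, 0 several and 2556 none. Detected probes numbered 13946 to 15784 per array. The number of arrays limits the precision.

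CS against RA used 14 arrays with batch as a term; losartan comparisons used the 12 arrays of batch 1. Models were fitted with limma 3.58.1 (lmFit, eBayes) in R 4.3.3, tested on simulated data, and p-values adjusted by Benjamini-Hochberg over all kept probes, with calls under 0.05. Array-level correlations used 100000 two-sided permutations within group and batch. A gene with several kept probes was represented by the probe of highest mean signal. The members, the gene lists and the alternatives were chosen with earlier results of these data known. Named genes were all members, every tested gene of the first 3 lists and up to 4 called genes of each other list. The 5 most similar genes per member, Nr1d1, Dbp, Tsc22d3 and Hspa1a were also named. Il1b, Il6, Il17a, Tnfsf11, Scgb1a1, Csf3, Camp, Elane, Prtn3, Mmp8, Mmp9, Bpifa1 and Reg3g were named after their values were seen. The other cell type lists appear under the additional observations. Alternatives covered background, scaling, filters, probe choice, eBayes options, array weights, batch handling, the replicate number as a block, clock-gene covariates and leaving out each array.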

Additional observations from a re-analysis of the deposited data

Results flagged for a closer look

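Of 12 groups of 4 to 7 arrays examined, 3 held an array far from the others by Dixon's criterion, which by chance marks about 1 in 20 groups. Cxcl15 on CS 1 had a log2 signal of 12.57, with the nearest CS array at 14.01. Cxcl15 on RA 3 was at 12.76, with the nearest RA array at 13.51. Both lie in batch 1 and were compared with all 7 arrays of their group, although Cxcl15 differed between batches: its CS mean was 13.57 in batch 1 and 14.23 in batch 2. Cxcl1 on CS 6 was at 8.92, with the nearest CS array at 7.94, at the limit of the criterion.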

How the results depend on the processing

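In CS against RA, Cxcl5 (1.25 to 2.36) and Cxcl1 (0.89 to 1.09) kept their direction in all 13 other settings and passed in 12. The exception was the clock-gene covariates over all 20 arrays, with 2.36 for Cxcl5, 1.02 for Cxcl1, -0.22 for Cxcl15 (a reversed direction) and 0 probes called. Calls in CS against RA numbered 1906, 861 with all 20 arrays and 486 without a batch term.

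The descriptions share replicate numbers between groups. Deviations of same-numbered arrays correlated at -0.324 to 0.05 for CS and RA, and at 0.0466, 0.317 and 0.211 for RA_Los and RA, where 5 of 6 arrays correlated best with their own number (1 of 14 for CS and RA). In 0 of 5 pairs of groups was every correlation over 0.1, so the numbers were not taken as pairs. With the replicate number as a block, CS against RA gave 1.66 for Cxcl5, 1.09 for Cxcl1 and 0.36 for Cxcl15, with 1545 probes called. Within batch 2 that block gave 470 calls in place of 909, and Cxcl5 (1.42) no longer passed (adjusted p = 0.101). It changed no other member's call.

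Within batch 1 the single call became 0 without background correction, with 75th percentile centring, with the authors' log2 values and with either other detection filter. It became 177 with array weights, where Cxcl5 (2.11) and Cxcl1 (1.44) passed, and 95 with the 6 CS and RA arrays alone, where Cxcl5 (1.98) and Cxcl1 (1.45) passed. Within batch 2 Cxcl15 did not pass with 75th percentile centring (0.35) or the authors' values (0.39), nor did Cxcl5 without a detection filter (1.42), with trend and robust eBayes (1.42) or with array weights (1.28). The smoke by batch difference had 1 call, 0 without background correction, with 75th percentile centring, the authors' values or the stricter filter, 3 without a filter, and 2 with 1 probe per gene, trend and robust eBayes or array weights, where Cxcl15 was -0.07.

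In CS_Los against CS, Cxcl1 was 0 with the authors' values and 0.02 with all 20 arrays, and Cxcl15 -0.09 with array weights. All 20 arrays gave 3 calls there and 3 in CS_Los against RA_Los. The single call of RA_Los against RA became 0 without background correction, with 75th percentile centring, the authors' values, either other filter or all 20 arrays, and that of CS_Los against RA became 0 with 75th percentile centring, the authors' values or the stricter filter. With 75th percentile centring the secretory list had 2 genes higher and 1 lower.

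Leaving out 1 array gave 1378 to 2271 calls in CS against RA, 0 to 1 within batch 1, 394 to 873 within batch 2, 1 to 3 for smoke by batch, 0 to 1 for RA_Los against RA, 1 to 5 for CS_Los against RA, and 0 to 0 for each other comparison. Cxcl15 ranged from 0.26 to 0.56 in CS against RA, 0 to 0.78 and 0.36 to 0.47 within batches 1 and 2, -0.36 to 0.42 for smoke by batch, -0.35 to 0.43 in CS_Los against CS and -0.16 to 0.62 for losartan by smoke. Cxcl1 ranged from -0.34 to 0.08 in CS_Los against CS and 1.5 to 2.14 in RA_Los against RA. Cxcl5 ranged from 1.11 to 1.69 within batch 2, 0.79 to 2.29 in RA_Los against RA, -0.62 to 0.88 in CS_Los against RA_Los and -2.61 to -1.10 for losartan by smoke. Where a setting changed a result, the cause was not tested. With 3 arrays in each losartan group, intervals there are wide.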

Other observations

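Other cell type lists were read beside the chemokines in CS against RA, where 11.2% of all probes were called in either direction. Of 10 monocyte and interstitial macrophage markers, 3 rose and 0 fell: the chitinase-like Chil1 by 1.17 ± 0.167, the fractalkine receptor Cx3cr1 by 1.14 ± 0.16 and Plac8 by 1.01 ± 0.15 on the log2 scale (SE, limma adjusted p = 0.000261, 0.000237 and 0.000352). Of 11 alveolar macrophage markers, 0 rose and 2 fell, Krt79 by 0.46 and Cidec by 0.48. Of 4 erythroid markers, 3 fell with a list median of -1.67, and of 5 platelet markers 1 rose (Pf4) and 1 fell (Gp5, by 0.39). Of 9 endothelial markers, 1 rose (Emcn, 0.49) and 1 fell (Eng, by 0.28). None of 5 alveolar type I, 9 fibroblast and smooth muscle or 10 cardiac and skeletal muscle markers passed in limma.

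Of 14 glucocorticoid-induced genes, 0 rose and 12 fell (median -1.06), and of 16 clock genes 3 rose and 5 fell, beside the same 11.2% of all probes. Per1 is counted as a faller in both of these lists, and Nfkbia here and among the NF-kB genes above. The part of these differences in the chemokine values was not tested.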
